A study of Arabidopsis thaliana with 6 samples.

Results

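The genes described here encode small cysteine-rich transmembrane (CYSTM) proteins of Arabidopsis thaliana, and their transcripts were measured in vegetative rosettes of watered plants and of plants under soil water deficit. The list held 10 genes, which were chosen by their family and with an earlier result of the same comparison in view, so their levels and changes are given as a description. Each was read through the probe set that the array annotation pairs with it. A probe set could be named for 7 of the 10 genes, and for 6 of these it was one of their own. In the annotation used, 13286 genes had a probe set of their own. One further probe set was shared by AT2G32190 and AT2G32210, so that 7 probe sets stood for the 7 genes. AT2G32200, PCC1 (AT3G22231) and AT3G22235 were not analysed here, because no probe set was paired with them in the annotation used.

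Col-0 plants were 4 weeks old when treatment began. The watered group was kept watered, and the water deficit group received no water until the relative water content of the plants had dropped to 65%. Each group had 3 biological replicates, with total RNA from 1 replicate on each Affymetrix ATH1 array, and the labels do not say how many plants made up a replicate. The plants carried no transgene or mutation according to the sources used here, and a whole rosette holds many cell types.

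CYSTM proteins are short peptides found across eukaryotes. They end in a conserved stretch rich in cysteine, which is thought to sit in or at a membrane, and many of their genes respond to stress. In Arabidopsis PCC1 was named for its control by pathogens and by the circadian clock. The WINDHOSE genes WIH1 and WIH2 of the same family are known from the formation of early female germline cells in the ovule. Several genes of the family lie side by side in the genome. In the gene order used here, AT2G32190, AT2G32200 and AT2G32210 on chromosome 2 were neighbours with 0 other protein-coding genes between them, and so were PCC1, AT3G22235 and AT3G22240 on chromosome 3. AT1G05340 and AT1G56060 lay apart on chromosome 1, and AT4G33660 and AT5G04080 were the only listed genes on chromosomes 4 and 5.

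The genes did not move together under water deficit. AT1G05340 was 83.1-fold higher and AT5G04080 was 2.47-fold higher than in watered rosettes, whereas AT3G22240 was 7.19-fold lower and AT1G56060 at least 4.70-fold lower. The probe set shared by AT2G32190 and AT2G32210 was 2.75-fold lower with overlapping groups. AT4G33660 and the probe set of AT2G32190 alone differed by less than the spread between arrays. Genes listed together as stress peptides thus differed in direction, and membership of the protein family could not be checked from expression values. For 2 of the 7 probe sets every water deficit value lay above every watered value and for 2 every water deficit value lay below, compared with 28.4% and 28% of all 13703 probe sets tested (56.4% in either direction). Counted by limma at an adjusted p under 0.05, 2 of the 7 were higher and 2 were lower, against 21.8% and 23% of all probe sets tested (44.9% in either direction). AT1G56060 was no longer among these calls without watered replicate 2 (log2 change -1.89), over the 4 brighter arrays (-1.84), without scaling (-1.99) or without the filter on dim probe sets (-2.23). These counts describe the genes chosen and carry no weight as a test. In RNA from whole rosettes, fewer cells of a type and less RNA per cell cannot be told apart.

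**Figure D1:**
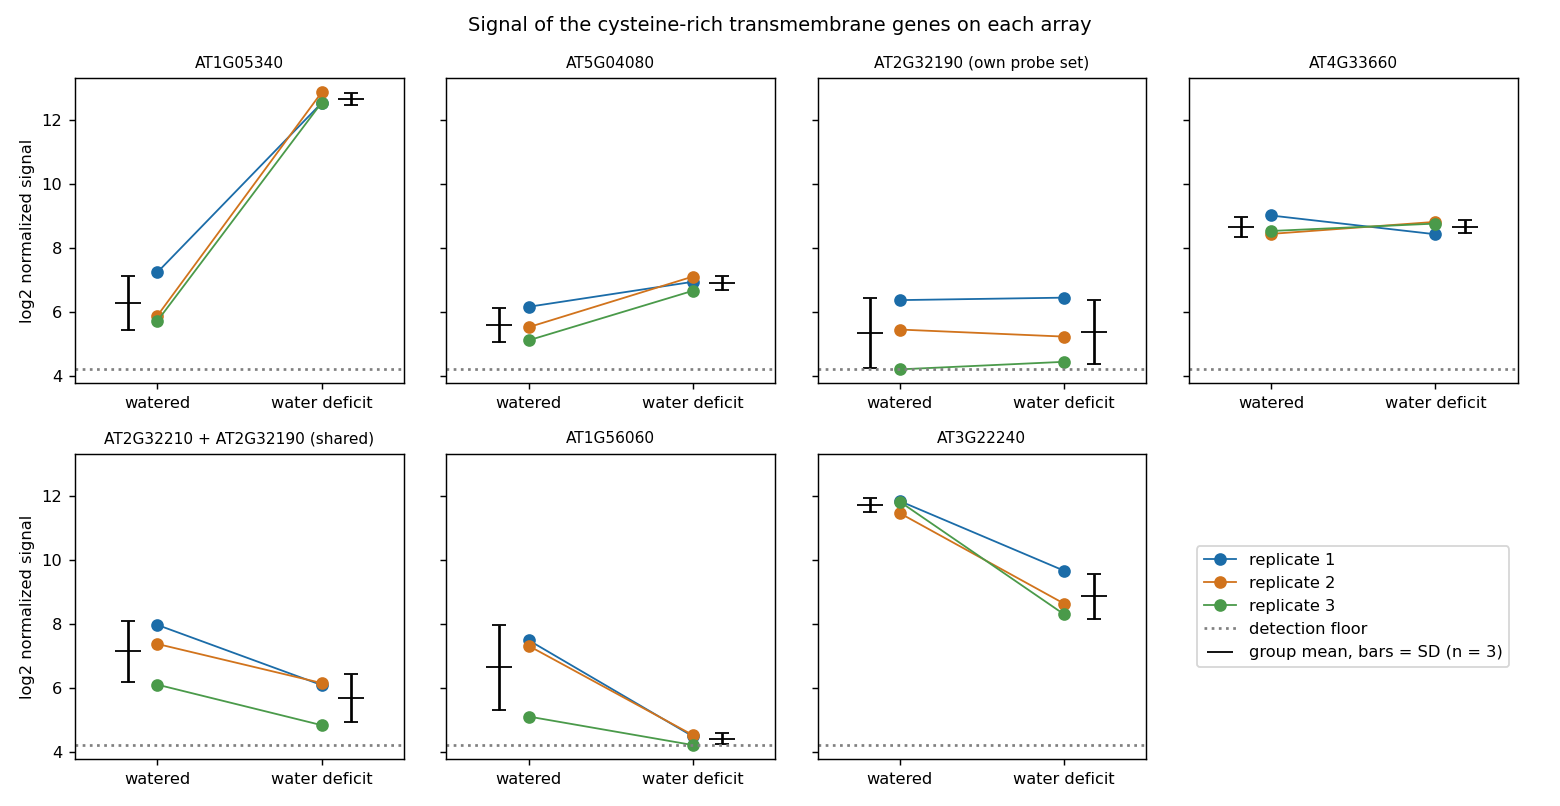
Normalized signal of the 7 probe sets on a log2 scale (vertical axis) on the 3 watered and 3 water deficit arrays. Each point is 1 array, lines join arrays with the same replicate number, black bars give the group mean and SD, and the dotted line is the detection floor at 4.21. AT1G05340 and AT5G04080 were higher on every water deficit array, and AT3G22240 and AT1G56060 were lower.

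The arrays differed in brightness, and replicate 1 was the dimmest of each group. The median deposited signal per array ranged from 12.6 to 51.6. Signals were therefore brought to a common distribution by quantile normalization and are given below in normalized units, where 18.5 units mark the detection floor set by control probe sets for bacterial transcripts. All 7 probe sets passed the filter of 3 arrays above the floor, and 5 of them exceeded the floor on all 6 arrays. The rosette label was checked with tissue markers. Of the leaf markers with a probe set 6 of 6 were above the floor on every array, with a summed signal of 31806 to 37965 in watered and 13402 to 19694 in water deficit rosettes. Few of the other markers had a probe set, with 1 of 6 for root, 2 of 4 for pollen and 0 of 4 for seed storage. The root hair gene AT1G12560 was at the floor on all 6 arrays. Of the 2 pollen markers 1 was at the floor on all 6 arrays, and 0 exceeded the floor on all 3 arrays of either group. The part of the lower leaf marker signal in the results below was not tested.

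AT1G05340 had the widest change of the list. Its normalized signal was 151, 58.9 and 52.6 on watered replicates 1, 2 and 3, compared with 5965, 7511 and 6003 on water deficit replicates 1, 2 and 3. The groups were far apart, and the lowest water deficit value was 39.5 times the highest watered value. The mean log2 signal went from 6.28 ± 0.84 to 12.66 ± 0.19 (SD, n = 3 each), a log2 change of 6.38 ± 0.39 (SE, n = 3 per group). In order of log2 change this probe set was number 12 from the top among the 13703 tested. The watered arrays held most of the spread, and their high value came from replicate 1. As deposited, before scaling, the watered signals of AT1G05340 were 56.0, 69.0 and 46.8 and replicate 1 did not stand out. The deposited signal was 74.2, 127 and 143 times higher under water deficit within replicates 1, 2 and 3.

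AT5G04080 was the other gene with higher signal under water deficit. Its normalized signal was 71.7, 46.0 and 34.6 on watered replicates 1, 2 and 3 and 123, 138 and 101 on water deficit replicates 1, 2 and 3. The groups did not overlap, although the gap was small, with the lowest water deficit value 1.42 times the highest watered value. The log2 change was 1.31 ± 0.28 (SE, n = 3 per group), and it was 0.78, 1.58 and 1.55 within replicates 1, 2 and 3. AT5G04080 was not among the calls without scaling (log2 change 1.87) or without the filter on dim probe sets (1.31). This gene stood at number 1252 from the top among the probe sets tested, far behind AT1G05340.

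AT3G22240, which lies next to AT3G22235 and in a row with PCC1, showed the largest drop of the list. In watered rosettes the normalized signal was 3667, 2821 and 3620 on replicates 1, 2 and 3, and under water deficit it was 809, 396 and 314. Every watered array was at least 3.49 times brighter than the brightest water deficit array. The mean log2 signal went from 11.71 ± 0.21 to 8.86 ± 0.71 (SD, n = 3 each), a log2 change of -2.85 ± 0.34 (SE, n = 3 per group). Here the water deficit arrays held most of the spread, in contrast to AT1G05340. Within replicates 1, 2 and 3 the log2 change was -2.18, -2.83 and -3.53. The transcript remained well above the floor under water deficit, and the probe set was number 209 from the bottom in order of change.

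AT1G56060 was close to the floor under water deficit. Its normalized signal was 180, 159 and 34.3 on watered replicates 1, 2 and 3 and 22.3, 22.9 and 10.7 on water deficit replicates 1, 2 and 3. Watered replicate 3 lay well below the other watered arrays, and water deficit replicate 3 was below the floor, so the fold is a lower bound. The log2 change was -2.23 ± 0.57 (SE, n = 3 per group), from 6.63 ± 1.33 to 4.40 ± 0.17 (SD, n = 3 each). Without watered replicate 3 it was -3.00, or at least 8.003-fold lower. The groups did not overlap after quantile normalization, but the lowest watered value was only 1.496 times the highest water deficit value. As deposited they overlapped, with 31.0 on watered replicate 3 and 35.5 on water deficit replicate 2.

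AT2G32190 and AT2G32210, which lie on either side of AT2G32200, were read by a pair of probe sets with unlike log2 changes. Whether the changes of these probe sets differ was not tested. The shared probe set, which cannot tell the transcripts of these genes apart, had a normalized signal of 250.0, 165 and 68.4 on watered replicates 1, 2 and 3 and of 67.8, 70.8 and 28.4 on water deficit replicates 1, 2 and 3. The groups overlapped only through watered replicate 3 and water deficit replicate 2. The log2 change was -1.46 ± 0.52 (SE, n = 3 per group), and every replicate number gave a lower value under water deficit, with log2 changes of -1.88, -1.22 and -1.27 for replicates 1, 2 and 3. With the replicate number as a block the change was the same with an SE of 0.19, and this probe set then joined the lower calls, which became 3 of 7, against 25.5% of all probe sets called lower with the block. It also joined them under median scaling, when all 6 arrays had to exceed the floor, and without watered replicate 3.

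The probe set of AT2G32190 alone gave no such difference. Its normalized signal was 82.9 and 43.8 on watered replicates 1 and 2 and below the floor on watered replicate 3, and it was 87.4, 37.6 and 21.7 on water deficit replicates 1, 2 and 3. The groups overlapped throughout, and replicate 1 was the highest and replicate 3 the lowest array of both. The log2 change was 0.03 ± 0.63 (SE, n = 3 per group), with changes of 0.08, -0.22 and 0.24 within replicates 1, 2 and 3. The sign of a value this close to 0 was not stable, since it was -0.04 with median scaling and 0.75 with no scaling. AT2G32210 had no probe set of its own, so its separate level is not given.

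AT4G33660 kept much the same signal in both groups. The normalized signal was 519, 348 and 371 on watered replicates 1, 2 and 3 and 346, 452 and 436 on water deficit replicates 1, 2 and 3. Replicate 1 gave both the highest watered and the lowest water deficit value, and the groups overlapped. The log2 change was 0.01 ± 0.22 (SE, n = 3 per group), from 8.67 ± 0.31 to 8.67 ± 0.21 (SD, n = 3 each). Within replicates the log2 change was -0.59 for replicate 1 and 0.38 and 0.23 for replicates 2 and 3. Its sign depended on the scaling, with -0.04 under median scaling and 0.50 with no scaling. Without both replicate 1 arrays the log2 change of AT4G33660 was 0.30, and the water deficit values then lay above the watered values.

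**Figure D2:**
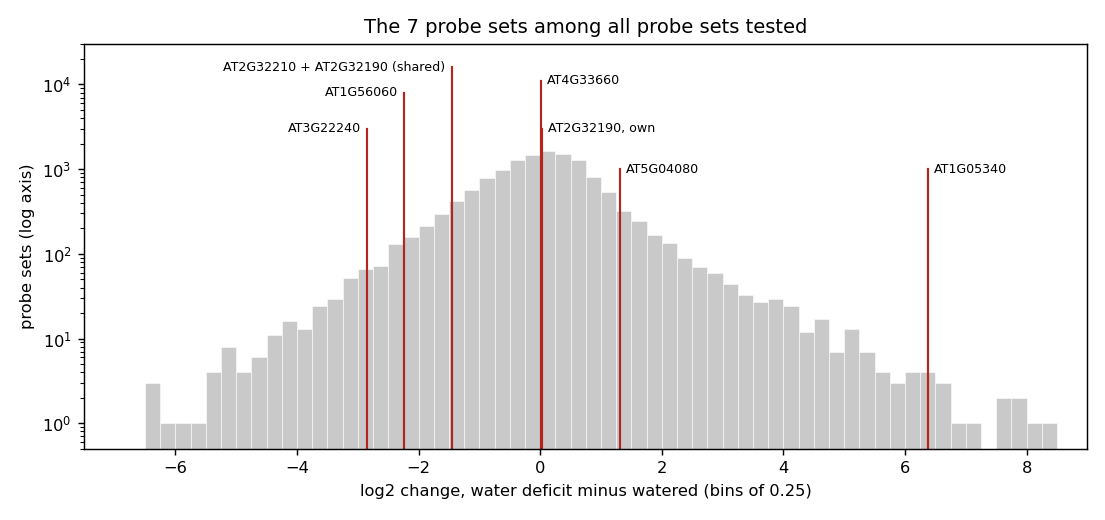
Number of probe sets (vertical log axis) by log2 change between water deficit and watered rosettes (horizontal axis, grey bars, 13703 probe sets tested). Red lines mark the 7 probe sets of the listed genes, which ran from -2.85 for AT3G22240 to 6.38 for AT1G05340.

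The changes were read relative to all probe sets, whose median log2 change was 0.04 after quantile normalization, 0.48 when arrays were scaled to the spiked-in hybridization controls and 0.51 without scaling. Taken relative to that median, the change of each listed gene moved by at most 0.24 log2 units between these settings, apart from the dim probe set of AT2G32190 alone, which gave -0.01, 0.27 and 0.25. For AT1G05340 the change relative to the median was 6.34 after quantile normalization, 6.26 with control scaling and 6.28 without scaling. For AT5G04080 it was 1.27, 1.35 and 1.36, and for AT4G33660 it was -0.03, -0.02 and -0.0036. AT3G22240 gave -2.88, -3.09 and -3.08, and AT1G56060 gave -2.27, -2.51 and -2.49. The shared probe set of AT2G32190 and AT2G32210 gave -1.50, -1.44 and -1.42. Median scaling was not among these settings. It widened the range of AT1G05340 (6.22), AT4G33660 (-0.07), AT1G56060 (-2.18), AT3G22240 (-3.14) and the probe set of AT2G32190 alone (-0.07).

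**Figure D3:**
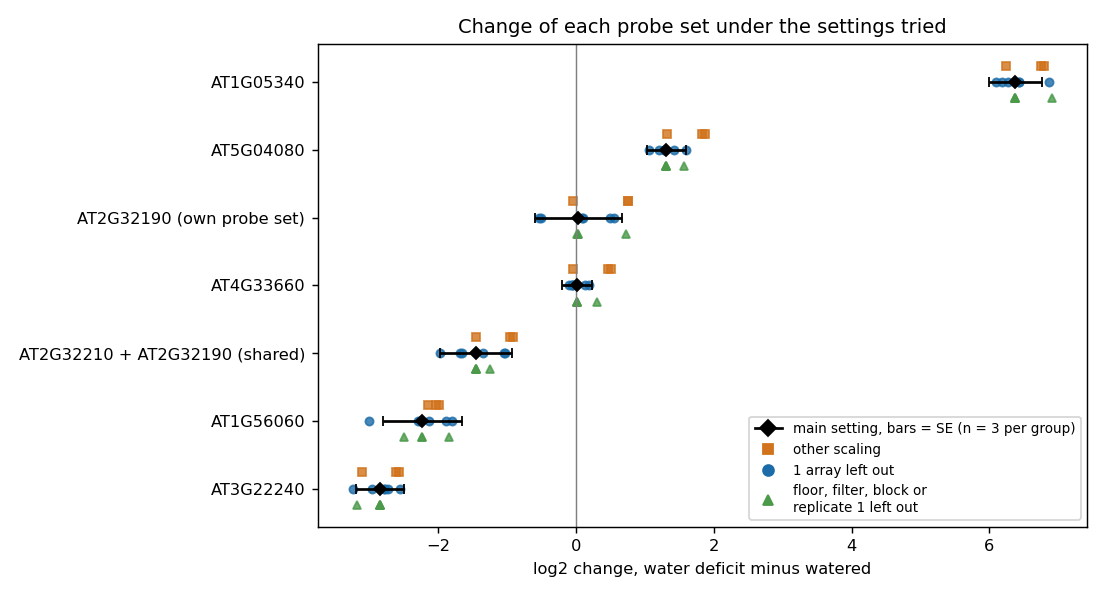
Log2 change (horizontal axis) of the 7 probe sets under the main setting (black diamonds, bars give the SE, n = 3 per group) and under the alternative settings (coloured symbols). AT1G05340 stayed between 6.10 and 6.91 and AT3G22240 between -3.25 and -2.56, whereas AT4G33660 and the probe set of AT2G32190 alone lay on both sides of 0.

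The array with the highest watered value depended on the scaling. After quantile normalization watered replicate 1 had the highest watered value at 7 of the 7 probe sets, and it had the highest watered value at 39% of all probe sets tested. As deposited, watered replicate 2 was the highest at 7 of 7 probe sets and at 84.1% of all probe sets tested. The part of array brightness in the spread of the watered values was not tested. Without both replicate 1 arrays, the log2 change was 6.91 for AT1G05340.

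Of 5 further genes of the family that were looked up by locus (AT1G68845, AT2G33520, WIH1, WIH2 and WIH3), only AT2G33520 was paired with a probe set. The gene table used held no descriptions, so it could not be searched for other family members. Its normalized signal was 41.1 on watered replicate 1 and below the floor on watered replicates 2 and 3, compared with 39.5, 48.0 and 38.3 on water deficit replicates 1, 2 and 3. Water deficit and watered values overlapped through watered replicate 1 alone. With 2 watered arrays at the floor, the water deficit signal exceeded the watered signal at least 1.73-fold, and the log2 change was 1.72 with the floor set at the 25th percentile and 1.85 without scaling. The log2 change above the floor of 0.79 ± 0.32 (SE, n = 3 per group) did not pass the test, with a limma adjusted p of 0.0814 and of 0.0695 when the replicate number was a block. Without watered replicate 1 it was 1.18 (limma adjusted p = 0.00299). Every watered value left was then at the floor, and the probe set passed the filter through the water deficit arrays alone. That p therefore carries no weight. Over the alternatives that gave a value, this one included, the limma adjusted p ran from 0.00299 to 0.282.

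Lists for abscisic acid (ABA) and for salicylic acid and defence, the hormone pathways to which CYSTM genes are often linked, were mostly not paired with probe sets. Through the annotation used, 1 of 21 ABA and dehydration genes could be read, and 2 of 22 salicylic acid and defence genes. The authors reported several other genes of the ABA list as up-regulated by dehydration in their microarray results. COR47, a dehydrin of cold and dehydrated leaves, rose by 2.05 ± 0.20 on the log2 scale (SE, n = 3 per group), with a limma adjusted p of 0.000162. SAG101, a partner of EDS1 in defence signalling, fell at least 3.06-fold (limma adjusted p = 0.000467). This call was lost with spike-in scaling (adjusted p = 0.282) and without scaling (0.400). GRX480, a glutaredoxin induced by salicylic acid, had a log2 change of -1.30 ± 0.49 (SE, n = 3 per group) and a limma adjusted p of 0.0612. It passed with the replicate block (adjusted p = 0.00678), over the 4 brighter arrays (0.0163) and without watered replicate 3 (0.0417). All probe sets tested had a median log2 change of 0.04.

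The genes most like AT1G05340 and AT3G22240 were sought among 7258 other genes with a probe set of their own, as the smallest Euclidean distance between log2 signals over the 6 arrays after each gene's own mean was taken away. With this contrast between groups the distance mostly reflects the size of the change. The 5 nearest to AT1G05340 were AT2G21820, SAG29, AT5G66780, AT2G41190 and AT5G05220, at distances of 1.22 to 1.43 log2 units. SAG29 belongs to the SWEET sugar transporters and was named for leaf senescence. AT2G21820, SAG29, AT5G66780 and AT5G05220 did not exceed the floor on any watered array, where AT1G05340 was above it, so their shared shape is set in part by the floor. The 5 nearest to AT3G22240 were AT2G44210, AT5G27290, WRKY53, CHLM and AT2G03350, at distances of 0.51 to 0.74 log2 units and with log2 changes between -3.01 and -2.44. WRKY53 is a transcription factor of leaf senescence, and CHLM is a methyltransferase of chlorophyll synthesis. Within the water deficit group all 5 of these genes, like AT3G22240, were lowest on replicate 3. Within the watered group WRKY53, like AT3G22240, was lowest on replicate 2, and the others were lowest on replicate 3.

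**Figure D4:**
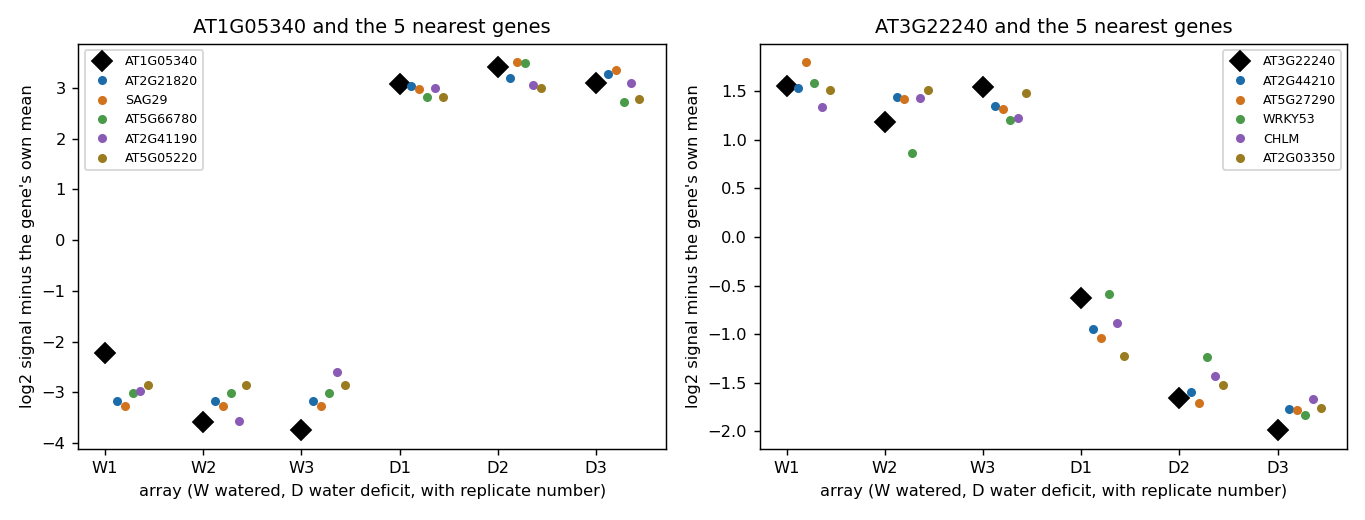
Log2 signal minus each gene's own mean (vertical axis) on watered (W) and water deficit (D) arrays 1 to 3, for AT1G05340 (left) and AT3G22240 (right) as black diamonds and their 5 nearest genes as coloured points. AT1G05340 lay above its neighbours on watered replicate 1, and the genes near AT3G22240 lay at Euclidean distances of 0.51 to 0.74 from it.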

How the data were processed

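Probe set intensity was deposited for 6 arrays in 1 table. The authors made these values with the Affymetrix operating software and Rosetta Resolver, on a linear scale and background-subtracted, before replicates were pooled, and arrays were not brought to a common level. Their ratio error model could not be rerun, and for the genome build behind the probe sets the sources used here name none. Values were quantile normalized (limma 3.58.1, R 4.3.3), raised to a floor of 18.5, the highest value of 27 Bacillus control probe sets, and converted to log2. Probe sets above the floor on at least 3 of 6 arrays were tested, 13703 of 22746, with limma on group alone and Benjamini-Hochberg adjustment over all of them. The script was tested on simulated data. Where an array of the lower group was at the floor, the fold is written as at least that fold.

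For 8730 probe sets other than controls the annotation named no gene. A gene with several probe sets was read through the one with the highest mean, except that every probe set of a listed gene is given. Symbols and gene order came from NCBI's gene table for assembly TAIR10.1. Promoter and protein sequences were not analysed here. The genes and lists were chosen with earlier results of these data known. The genes named are the listed genes and the 5 further family members looked up by locus. To these were added the measured genes of the ABA and defence lists with the largest changes. The last are the 5 nearest in pattern to the genes with the largest rise and fall. Samples that shared a replicate number deviated from their group means together (correlations 0.291, 0.230 and 0.393 for replicates 1, 2 and 3). Between different replicate numbers the correlations ran from -0.381 to 0.028. Deviations within a group sum to 0, so these correlations are not independent of each other. The titles do not say whether the replicate numbers pair the samples. Array brightness followed the same replicate order in both groups, with replicate 1 dimmest and replicate 2 brightest. Its part in these correlations was not tested. The main fit used group alone, and the replicate number was a block in an alternative. The number of arrays limits the precision. Alternatives changed the scaling, floor, filter, model and arrays.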

Additional observations from a re-analysis of the deposited data

How the results depend on the processing

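Over 14 alternatives AT1G05340 and AT5G04080 stayed higher and AT3G22240 and AT1G56060 lower wherever they were tested. Only the changes of scaling could have turned these directions. The other alternatives reused the normalized values of groups that did not overlap, so the sign was fixed. AT1G56060, AT2G33520 and the probe set of AT2G32190 alone gave no value when all 6 arrays had to exceed the floor, and AT2G33520 gave none over the 4 brighter arrays (no replicate 1). The number of listed probe sets lower without overlap was 1 in place of 2 under spike-in scaling, without scaling, and when all 6 arrays had to exceed the floor. Leaving out 1 array gave 2 to 3 lower without overlap. The number higher without overlap was 2 throughout, except over the 4 brighter arrays, where AT4G33660 made it 3. In place of 2 higher and 2 lower calls there were 1 and 1 without scaling (9.39% of all probe sets called) or without the filter (19.5%), where AT5G04080 and AT1G56060 were lost. There were 2 and 1 over the 4 brighter arrays (41.6%) and without watered replicate 2 (32.8%), where AT1G56060 was lost. There were 2 and 3 under median scaling (45.5%), with the replicate block (51.2%) and without watered replicate 3 (42.9%), where the shared probe set was gained. Over all probe sets, 2992 were called higher and 3154 lower, but under spike-in scaling these were 1344 and 525, and without scaling 1030 and 370. Leaving out 1 array gave 1908 to 2888 higher (1908 without water deficit replicate 2, 1992 without water deficit replicate 3) and 2131 to 2813 lower. With the replicate block 3519 were called higher and 3493 lower, and among the genes named it changed the calls of the shared AT2G32190 and AT2G32210 probe set and of GRX480 alone. The log2 change of AT2G33520 was 1.77 under spike-in scaling (limma adjusted p = 0.0493), and leaving out 1 array gave 0.60 to 1.18. The number of defence genes lower was 1, against 0 under spike-in scaling, without scaling and with the strict filter, 2 with the replicate block and over the 4 brighter arrays, and 1 to 2 without 1 array. The strict filter removed SAG101, which was below the floor on 2 water deficit arrays; the other causes were not tested. Dim signals, as of AT1G56060 and AT2G33520, limit the precision.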
